A study of Brachypodium distachyon with 7 samples.

Results

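Genes that carried the histone mark H3K27me3 without H3K4me3, and that followed one another along a chromosome, were examined in seedlings of the grass Brachypodium distachyon. They were chosen by which genes the deposited chromatin immunoprecipitation sequencing (ChIP-seq) tables list. A gene had to be listed with an H3K27me3 signal, be absent from the H3K4me3 tables, and lie within 10 locus numbers of the next such gene on its chromosome, in a run of at least 3 genes. The rule gave 1149 genes in 311 runs. They made up 24.5% of the 4682 H3K27me3-only genes and 17.5% of the 6554 genes listed for H3K27me3, while 16434 genes were listed for either mark. Absence from the H3K4me3 tables means that a gene was not listed there, not that its H3K4me3 was measured as 0.

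H3K27me3 is written by Polycomb repressive complex 2 and is found over genes that are kept silent. In plants it typically covers single genes, and adjacent silent genes can form a longer marked stretch. H3K4me3 is found at the starts of active genes. In Arabidopsis, prolonged cold silences the flowering repressor FLC by adding H3K27me3, whereas in temperate cereals cold is known to lower the mark at the flowering promoter VRN1.

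All libraries came from pooled aerial parts of seedlings of the diploid line ABR1, grown at 24 °C with 16 h of light and 8 h of dark. V0 seedlings had no cold and were taken 17 days after sowing. V30 seedlings spent 14 days in warmth and then 30 days at 4 °C. V30N seedlings had 7 days of warmth, 30 days at 4 °C and 7 more days of warmth. H3K27me3 had 1 library in each of these conditions, and the 4 H3K4me3 libraries served here only for their gene lists. With 1 library per condition, no difference below has a replicate check and no test was made. V0 seedlings were also younger than those of V30 and V30N. V30 and V30N seedlings had the same total age but differed in days of warmth before and after cold. These effects and that of cold cannot be told apart. In whole aerial parts, a lower signal in every cell and a mark present in fewer cells cannot be told apart either.

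The values are signals per gene in the unit the authors deposited, which the files do not define. A median gene of the 6554 had 117 in V0, 114 in V30 and 116 in V30N. V30 stood apart from the other libraries in its spread. Its 99th percentile was 1196, against 948 in V0 and 936 in V30N, and the SD of its log2 values was 1.16, against 1.06 and 1.07. Low values also lay on steps of a different size in each library, 0.595 in V0, 0.653 in V30 and 0.670 in V30N. By step size V0, not V30, was furthest from the others. Of V30 values below 45, 47.2% lay within 0.0012 of a multiple of the V30 step, against 36.1% in V0 and 36.6% in V30N for their own steps. Comparisons with V30 therefore rest on the library that stands apart in spread. The comparison of V30N with V0 is the one made without it.

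None of the 1149 identifiers occurs in the reference gene table (RefSeq, Brachypodium_distachyon_v3.0), and the files pair no identifier with a gene name. Runs are therefore named by their first and last identifier. The digit after "Bradi" is the chromosome and the number after "g" gives the order of genes along it, not a distance in bases. The genome build was not given in the sources used here. Whether a signal lies over a promoter, an exon or a whole gene body is likewise not given.

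Most runs were short. Of the 311 runs, 194 (62.4%) had exactly 3 genes, 68 had 4, 22 had 5, 15 had 6 and 9 had 7. The longest had 13, 10 and 9 genes. Inside the runs, 751 of 838 links (89.6%) had a step of exactly 10 and 87 had a smaller one, and 83 members had a number that is not a multiple of 10. Just outside the rule were 610 pairs of successive H3K27me3-only genes with a step of 11 to 20, and 645 runs of only 2 genes. Linked genes had identical signals in 0 cases in V0, 0 in V30 and 1 in V30N. Whether neighbours share part of their signal was not tested.

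**Figure D1:**
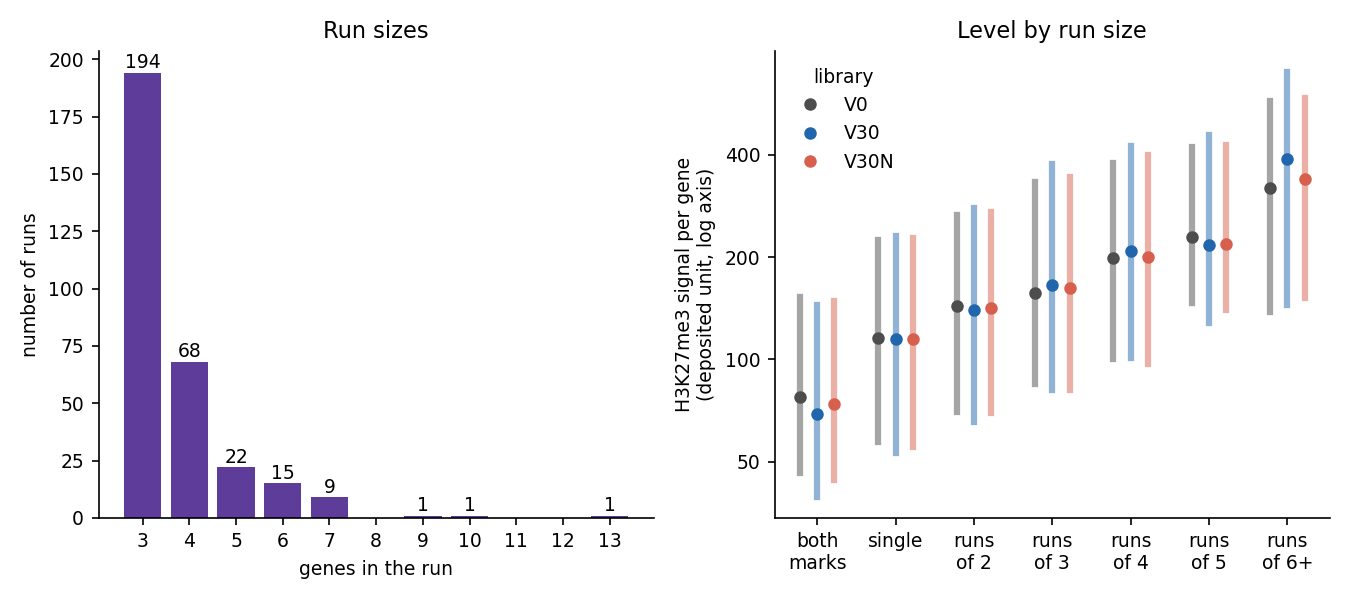
Left, number of runs by number of genes, with the count above each bar. Right, H3K27me3 signal per gene on a log axis for genes with both marks, single H3K27me3-only genes and runs of increasing size, with points for the median and bars for the quartiles over genes in each library. In V0 the median goes from 77.4 in genes with both marks to 318 in runs of 6 or more.

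The median H3K27me3 signal was higher in genes of runs than in other marked genes. Their median signals were 195, 204 and 196 in V0, V30 and V30N. H3K27me3-only genes outside runs had 124, 123 and 125, so the members' median was 1.57, 1.66 and 1.57 times as high. Genes with both marks were lower still, at 77.4, 69.2 and 73.8. The ranges overlapped widely, since members spanned 27.3 to 1915 in V0 and genes outside runs 27.3 to 1695. Among members, 250 (21.8%) were in the top 10% of all H3K27me3 genes in V0, against 9.48% of H3K27me3-only genes outside runs and 3.79% of genes with both marks. When all H3K27me3 genes were split by V0 signal into 4 classes of equal size, the lowest class held 135 members (11.7%), against 23.6% and 36.2%. These values describe the choice, since presence in the H3K27me3 table was part of it.

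The level was higher in longer runs. Run length was set by which genes are listed for H3K27me3, so this may also partly describe the choice. In V0 the median was 115 in single genes and 144 in runs of 2, just outside the rule. It was 157 in runs of 3, 199 in runs of 4, 229 in runs of 5 and 318 in runs of 6 or more. The same order held in V30, from 166 in runs of 3 to 389 in runs of 6 or more, and in V30N, from 162 to 339.

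Within a run, the genes were related in level but far from equal. Of the variance of log2 signal, 40.6% lay between runs in V0, with 42.4% in V30 and 40.4% in V30N. Pearson's r of log2 signal between linked neighbours was 0.51 in V0 over 838 pairs, and between successive H3K27me3-only genes that were not linked it was 0.10 over 3194 pairs. These pairs share a library, so the values are descriptions across genes. In the median run the highest gene had 3.30 times the signal of the lowest in V0, and in 77 runs the ratio was at most 2. The ratios ran from 1.02 to 34.4.

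Inner genes of a run tended to be higher than the genes at its ends. A run ends by rule where the next gene is not listed as H3K27me3-only, so this too may partly describe the choice. In the 49 runs of 5 or more, the mean of the inner genes exceeded that of the end genes in 34 runs in V0 (69.4%), 35 in V30 and 35 in V30N. The median signal in V0 was 325 for inner genes of these runs and 218 for end genes. Over all 311 runs the inner genes were higher in 187 (60.1%). The last gene was above the first in 152 of 311 runs in V0 (48.9%), and in 18 of the 49 longer ones.

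The longest run, Bradi1g00280 to Bradi1g00400 on chromosome 1, had 13 genes at consecutive steps of 10. The median of its genes reached 785 in V0, 895 in V30 and 805 in V30N. In V0 its genes lay between 292 (Bradi1g00380) and 1311 (Bradi1g00280). The second longest, Bradi1g49360 to Bradi1g49450, had 10 genes and had a low and a high part. In locus order, its first 6 genes had 138, 124, 179, 262, 229 and 148 in V0, and the remaining 4 had 1243, 1140, 904 and 888. In V30 the first 6 had 190.0, 130.1, 203, 258, 231 and 154, and the other 4 had 1408, 1378, 1030.4 and 1105. In V30N they had 192, 143, 165, 291, 252 and 171, followed by 1244, 1135, 863 and 901. The same boundary between low and high genes was thus present in all 3 libraries. The run of 9 genes, Bradi4g34510 to Bradi4g34590, was highest at its start, with 701 and 548 in V0 at its first genes and 67.5 to 313 at the other 7.

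The highest run was Bradi5g02810 to Bradi5g02850. In locus order its 5 genes had 1221, 1499, 1915, 423 and 317 in V0. They had 1658, 2160.2, 2749.7, 589.9 and 393 in V30, and 1145, 1399, 1842, 491 and 332 in V30N. Its middle gene, Bradi5g02830, held the highest signal of all members in each library. The median V30 minus V0 difference of this run, on the log2 scale explained with the cold comparison, was 0.46, and 0.10 with the trend with level removed. The next highest were Bradi4g12340 to Bradi4g12390, 6 genes with medians of 983, 1259.7 and 1032, and Bradi1g59780 to Bradi1g59800, 3 genes with medians of 951, 1036 and 937. At the other end, the 3 genes from Bradi1g75670 to Bradi1g75690 had 35.1, 35.7 and 35.8 in V0, and 25.1, 32.7 and 28.5 in V30. In V30N they had 30.8, 36.9 and 32.2. The run from Bradi2g16560 to Bradi2g16577 had the next lowest median, although its last gene had 121 in V0 beside 29.2 and 27.4.

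Runs occurred on all 5 chromosomes, and chromosome 4 held a larger share of them for its size. Of its 893 H3K27me3-only genes, 283 (31.7%) were in 76 runs. The share was 22.6% on chromosome 1 (304 genes in 81 runs), 25.9% on chromosome 2 (269 in 74), 21.1% on chromosome 3 (212 in 60) and 20.1% on chromosome 5 (81 in 20). Chromosome 4 also had more H3K27me3-only genes among its listed genes, 34.2%, against at most 27.9% on the others. Median signal of members in V0 was 277 on chromosome 4, and 132 to 217 on the others.

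Along the chromosomes, one stretch stood out. Each chromosome's range of locus numbers was divided into 10 equal parts, and in the third of these on chromosome 4, from Bradi4g09100 to Bradi4g13620, 74 of 229 listed genes (32.3%) were members. They formed 19 runs of 3 to 7 genes and made up 54.0% of the 137 H3K27me3-only genes there. In the other parts the share of listed genes was at most 12.2%, and the part with none lay on chromosome 5. Over all chromosomes the third part, which includes this stretch, held 11.7% and the ninth 3.45%, with the other parts between 6.03% and 7.92%. The third part held 10.1% on chromosome 1, 7.61% on chromosome 2, 8% on chromosome 3 and 0% on chromosome 5. The stretch was singled out after its values were seen, so its share is a description. Its members had a median of 452 in V0, 579.7 in V30 and 452 in V30N, against 183, 187 and 183 in members elsewhere.

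**Figure D2:**
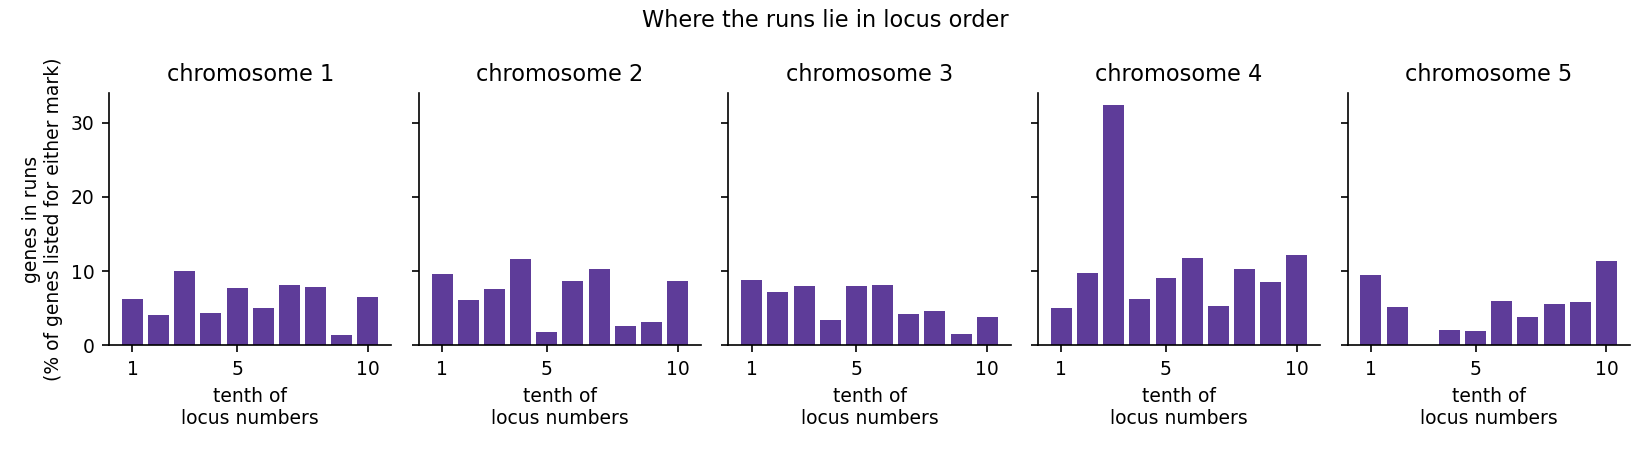
Percent of the genes listed for either mark that are in runs, in 10 equal parts of each chromosome's range of locus numbers. The bar of 32.3% in the third part of chromosome 4 is above all others, which reach at most 12.2%.

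What lay next to a run was examined from the gene lists. Each run has a side before and a side after it, 622 sides in all. Within 10 numbers of the run, the nearest listed gene carried H3K4me3 only at 168 sides (27.01%) and both marks at 108 (17.4%), and no gene was listed for either mark at 346 (55.6%). In 32.5% of runs at least 1 side bordered a gene with both marks, and in 19 runs both sides met an H3K4me3-only gene. The neighbours of genes outside runs were not worked out, so these shares are descriptions. A gene listed for H3K4me3 had its number inside the span of 1 run only. The rule largely fixed this, because linked genes are at most 10 numbers apart and most loci are numbered in steps of 10. Where genes with both marks bordered a run, their log2 signal in V0 was related to that of the end gene (r = 0.52 over 108 sides), with a median of 7.04 against 7.73 on the log2(signal + pseudocount) scale.

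After 30 days of cold, members were on balance slightly higher than in V0, and few differed much. Differences are given as log2(signal + 27.3), where the added pseudocount is the 1st percentile of all H3K27me3 values and understates the change of low genes. The median difference of V30 minus V0 was 0.08 over the 1149 members (quartiles -0.09 and 0.24), 0.002 over H3K27me3-only genes outside runs, -0.08 over genes with both marks and -0.01 over all 6554. By at least 1.5-fold, 15 members were higher (1.31%), where 0.610% of all H3K27me3 genes were higher. Also 15 were lower (1.31%), where the share of all genes was 1.83%. With each library centred on its median the members' counts were 24 higher and 15 lower, and the share of all genes was not worked out. At 2-fold, 1 member was higher and 4 were lower, beside 0.0610% and 0.336% of all genes.

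The difference went with level. When the 6554 genes were split by mean signal into 4 classes of equal size, the 499 members of the highest class had a median V30 minus V0 difference of 0.19, against 0.13 in the 891 genes outside runs and 0.11 in the 249 genes with both marks. In the lowest class the 130 members had -0.09, genes outside runs -0.07 and genes with both marks -0.13. Once the trend with level over all genes was removed, the median over members was 0.02. By 1.5-fold, 8 members were then higher (0.696%) and 12 lower (1.04%), beside 0.504% and 1.39% of all genes.

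**Figure D3:**
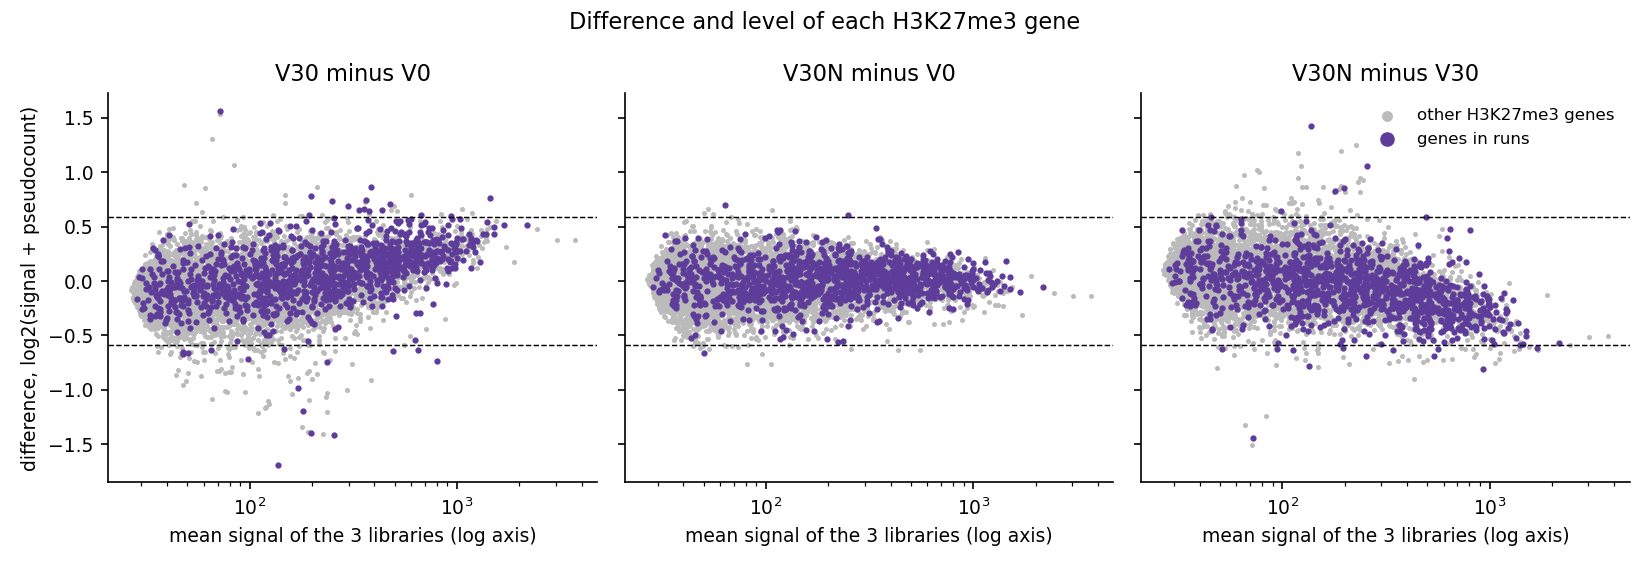
Difference of each H3K27me3 gene between 2 libraries against its mean signal on a log axis, with members of runs in purple, other genes in grey and dashed lines at 1.5-fold. In V30 minus V0 the high genes sit above 0, with a member median of 0.19 in the highest of 4 level classes. In V30N minus V0 that median is 0.02.

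The members past 1.5-fold were partly gathered in the same runs. The 15 higher members lay in 9 runs, and 9 of them in only 3 runs, while the 15 lower members lay in 10 runs, 9 of them in 4. Chromosome 4 held 10 of the 15 higher members and 5 of the 15 lower ones, beside 283 of all 1149 members. The run with the highest median was Bradi4g05240 to Bradi4g05290. In locus order its 6 genes had 271, 297, 345, 277, 1121 and 101.2 in V0. In V30 they had 471, 479, 558, 525, 1929 and 159, and in V30N 350.1, 351, 403, 349, 1282 and 115. Every gene was highest in V30 and lowest in V0, although the levels within the run spanned more than 1 order of magnitude. The median log2 difference was 0.70, with genes from 0.54 to 0.86, and 5 of the 6 were past 1.5-fold. With the trend with level removed the median was 0.55, below 1.5-fold (0.58 on this scale).

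The next highest run in V30 minus V0 was Bradi4g10380 to Bradi4g10397, whose 3 genes had 148, 825 and 939 in V0. They had 274, 1261 and 1329 in V30, and 169, 709 and 879 in V30N. Here too every gene was highest in V30, with a median difference of 0.60. This run has a high level, and with the trend with level removed the median was 0.29.

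The lowest medians belonged to runs in which only some of the genes differed. In Bradi4g06720 to Bradi4g06740, the first gene had 553 in V0, 570.01 in V30 and 522 in V30N. The second, Bradi4g06730, had 255, 95.8 and 191, and the last, Bradi4g06740, had 204, 44.4 and 165. The differences were 0.04, -1.20 and -1.69, and the last was the lowest of all 6554 genes. The boundary therefore fell inside the run, between its first and second gene.

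The other run with a low median, Bradi5g27310 to Bradi5g27350, holds loci published as ice recrystallization inhibition (IRI) genes, whose proteins limit the growth of ice crystals. That assignment comes from the literature, not from the files. Of 15 other loci looked up as flowering or cold-response (CBF) candidates, none was in a run, 8 carried both marks and 2, Bradi1g48830 and Bradi4g35640, were single H3K27me3-only genes. Its first genes, Bradi5g27310 and Bradi5g27320, differed by -0.02 and 0.11 in V30 minus V0, whereas the following 3, with V0 signals of 239, 299 and 366, had 108, 97.0 and 119.9 in V30 and differed by -0.98, -1.39 and -1.42. Of the 4 members lower by 2-fold in the series, 2 were thus in this run and the other 2 in Bradi4g06720 to Bradi4g06740.

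**Figure D4:**
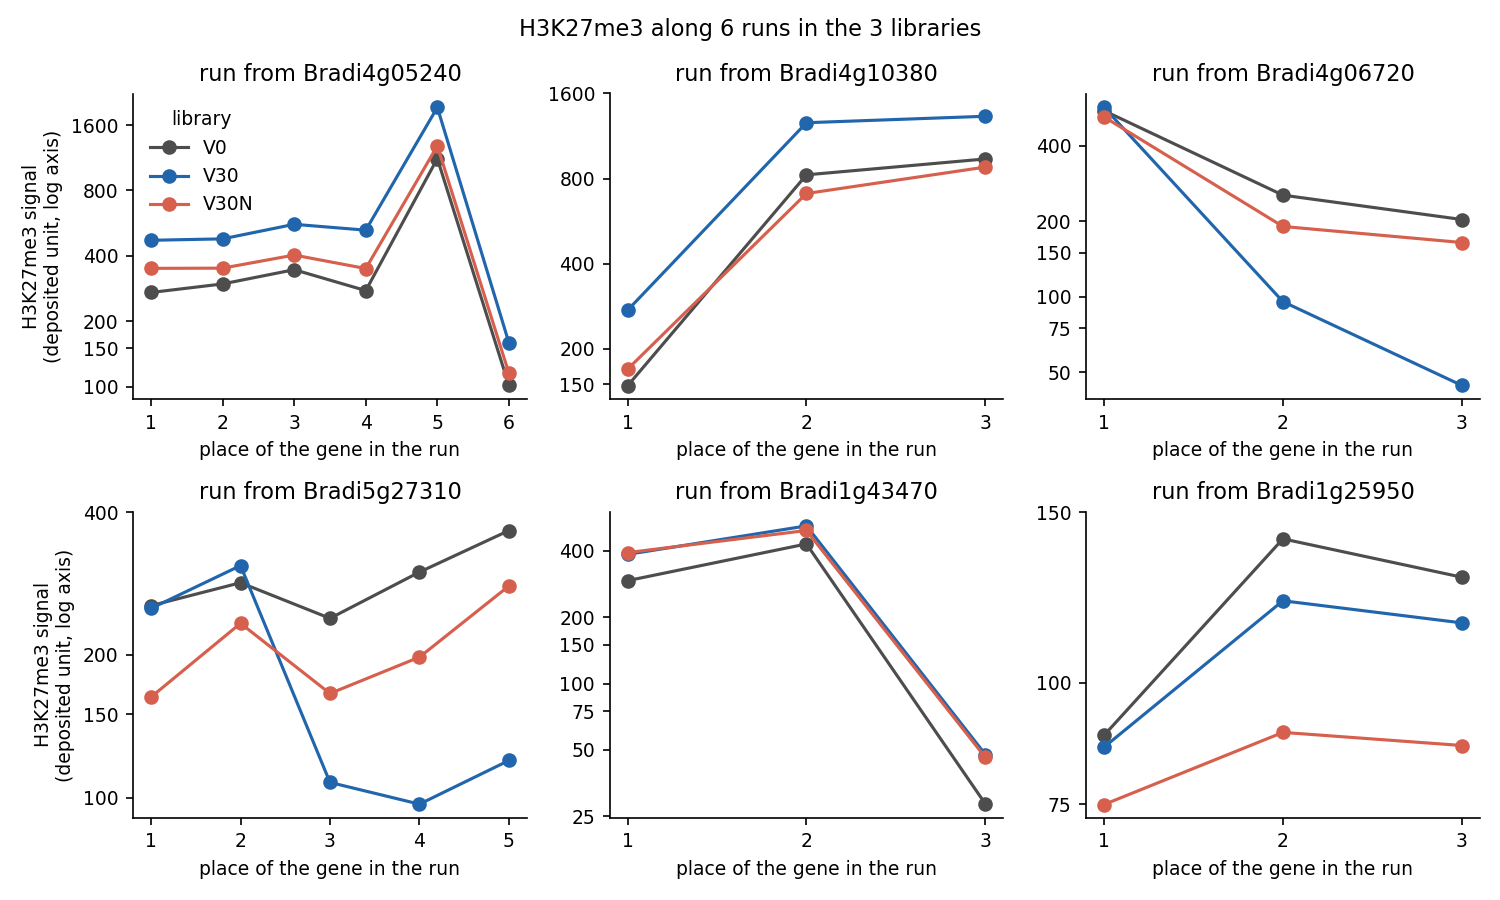
H3K27me3 signal on a log axis along 6 runs, with genes in locus order on the horizontal axis and 1 line per library. V30 lies above the other libraries at all 6 genes of the run from Bradi4g05240, and in the runs from Bradi4g06720 and Bradi5g27310 it lies far below them only from the second and the third gene on.

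The single member furthest above V0 was Bradi4g37860, with 31.95 in V0, 148 in V30 and 37.2 in V30N, a difference of 1.56. The other genes of its run had 172 and 135 in V0 and 173 and 89.8 in V30. The gene on its outer side, Bradi4g37850, carried both marks and had 33.1, 148 and 34.2, and its V30 value was identical to that of Bradi4g37860. Whether both values come from the same stretch of signal was not tested.

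After 7 days back in warmth, differences from V0 were small. The median of V30N minus V0 over members was 0.01 (quartiles -0.09 and 0.11), against -0.001 over genes outside runs, -0.03 over genes with both marks and -0.01 over all genes. By 1.5-fold, 2 members were higher (0.174%) and 1 was lower (0.0870%), beside 0.107% and 0.244% of all H3K27me3 genes. These shares of members were close to those of all genes. Quantile normalization gave 2 higher and 2 lower members, and the share of all genes was not worked out for it. No run had a median past 1.5-fold. V30N minus V0 uses the same V0 library as V30 minus V0, so it is not separate evidence.

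The run with the lowest V30N minus V0 median was Bradi5g27310 to Bradi5g27350, already named for its low V30 minus V0 median. In locus order its 5 genes had 254, 284, 239, 299 and 366 in V0, and 163, 233, 166, 198 and 279 in V30N. All 5 were below V0, by -0.26 to -0.56, with a median of -0.46. Its first and second genes, which were near V0 in V30 at 251 and 308, were lower in V30N than in either other library. The next lowest run was Bradi1g25950 to Bradi1g25970, whose 3 genes had 88.3, 141 and 129 in V0. They had 85.9, 122 and 115 in V30, and 74.9, 88.9 and 86.2 in V30N. Its median was -0.46, with genes from -0.18 to -0.53, and each of its genes was lowest in V30N.

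At the upper end, Bradi1g43470 to Bradi1g43490 had 292, 429 and 28.5 in V0, 385, 518 and 47.7 in V30 and 392, 494 and 46.2 in V30N. The median V30N minus V0 difference was 0.39, and V30 and V30N were both above V0 at all 3 genes. In Bradi4g23050 to Bradi4g23070 the values were 65.5, 99.7 and 179.9 in V0, 76.1, 104 and 255 in V30 and 84.7, 149 and 229 in V30N, with a median of 0.31. The single member furthest above V0 was Bradi3g04370, with 45.9 in V0, 52.9 in V30 and 91.5 in V30N. Its run mates had 85.1 and 114 in V0 and 68.1 and 115 in V30N, so the difference of 0.70 was not shared along the run. The other member higher by 1.5-fold, Bradi4g10630, had 170.1 in V0, 302 in V30 and 273 in V30N, and the 1 lower member, Bradi4g39167, had 69.1, 47.6 and 33.7. Both were named after their values were seen.

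Between V30 and V30N, the members' median difference of V30N minus V30 was -0.06, against -0.01 over genes outside runs, 0.05 over genes with both marks and -0.003 over all genes. By 1.5-fold, 7 members were higher (0.609%) and 13 were lower (1.13%), beside 1.16% and 0.946% of all genes. Centring gave 5 and 19, and quantile normalization and removal of the trend with level each gave 8 and 8. With the trend removed, 0.696% of members were higher and 0.696% lower, beside 0.885% and 0.687% of all genes. For centring and quantile normalization the share of all genes was not worked out. V30N minus V30 uses the same V30 library as V30 minus V0, so it is not separate evidence. The runs at its extremes were largely those already described. Bradi4g06720 to Bradi4g06740 (median 0.83) and Bradi5g27310 to Bradi5g27350 (0.52) were highest. At the genes that were low in V30, they had values between V30 and V0 in V30N. Lowest were Bradi4g10380 to Bradi4g10397 (-0.61) and Bradi3g60250 to Bradi3g60270 (-0.57). The latter had 92.6, 80.3 and 49.99 in V0, 120.5, 106 and 68.6 in V30 and 72.1, 72.4 and 34.8 in V30N, so that every gene was highest in V30 and lowest in V30N. With the trend with level removed the order of these runs was the opposite: the Bradi4g10380 run had -0.51, below 1.5-fold, and the Bradi3g60250 run had -0.61, past it and the lowest of all runs. The single members furthest apart were Bradi4g06740 (1.42) and Bradi4g37860 (-1.44).

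Members of a run differed together between libraries, in part. For V30 minus V0, 39.9% of the variance of the difference lay between runs, with an SD of 0.16 between runs and 0.20 within them. In 135 of 311 runs (43.4%) all genes were on the same side of 0, 94 above and 41 below. For V30N minus V0 the share was 21.3%, with SDs of 0.08 and 0.15, and 89 runs (28.6%) lay on one side, 49 above and 40 below. For V30N minus V30 it was 33.6%, and 123 runs lay on one side, 37 above and 86 below. Unrelated genes can also lie on one side of 0, most easily in the 194 runs of exactly 3 genes. How many runs would do so was not worked out, so these counts of runs are descriptions. With the trend with level removed, the share of variance was lower in the comparisons with V30. It was 34.3% for V30 minus V0 and 26.1% for V30N minus V30, and 21.7% for V30N minus V0. Runs on one side of 0 were then 116 (37.3%) for V30 minus V0, 71 above and 45 below. For V30N minus V0 they were 87, 50 above and 37 below. For V30N minus V30 they were 92 (29.6%), 38 above and 54 below, so the excess on one side was smaller in both comparisons with V30. No run had every gene past 1.5-fold in any of the 3 comparisons. Every gene of the run was highest in V30 in 60 runs, in V0 in 11 and in V30N in 8, and in the other 232 the highest library differed between genes. Of single members, 50.7% were highest in V30, against 38.2% of genes outside runs and 26.0% of genes with both marks. Over all H3K27me3 genes, 36.9% were highest in V30, 33.4% in V0 and 29.8% in V30N. These orders use signals as deposited. Members had higher levels, and high genes tended to be higher in V30, so this is not a trait shown to be particular to runs. The orders were not worked out with the trend removed.

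The likeness was lower between genes further apart. For V30 minus V0, Pearson's r between genes of a run was 0.55 at 1 place apart (838 pairs), 0.32 at 2 (527 pairs), 0.28 at 3 (216 pairs) and 0.31 at 4 (99 pairs). With the trend with level removed the values were 0.51, 0.27, 0.17 and 0.10. For V30N minus V0 they were 0.31, 0.14, 0.05 and 0.17 as deposited. Over all successive H3K27me3-only genes, in runs or not, r for V30 minus V0 was 0.62 at steps under 10, 0.53 at a step of 10, 0.25 at 11 to 20, 0.08 at 21 to 50 and 0.01 at 51 to 100. Pairs just outside the rule, the 645 runs of 2 genes, had r of 0.51, close to the 0.55 of longer runs. The likeness also crossed into genes with both marks that bordered a run, with r of 0.40 between their difference and the median of the run for V30 minus V0 over 108 sides, and 0.27 for V30N minus V0. Medians of neighbouring runs separated by 11 to 50 numbers had r of 0.50 for V30 minus V0 but -0.47 for V30N minus V0, over 26 pairs of runs. All these pairs share their libraries, and adjacent genes may share signal, so the values are descriptions across genes.

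**Figure D5:**
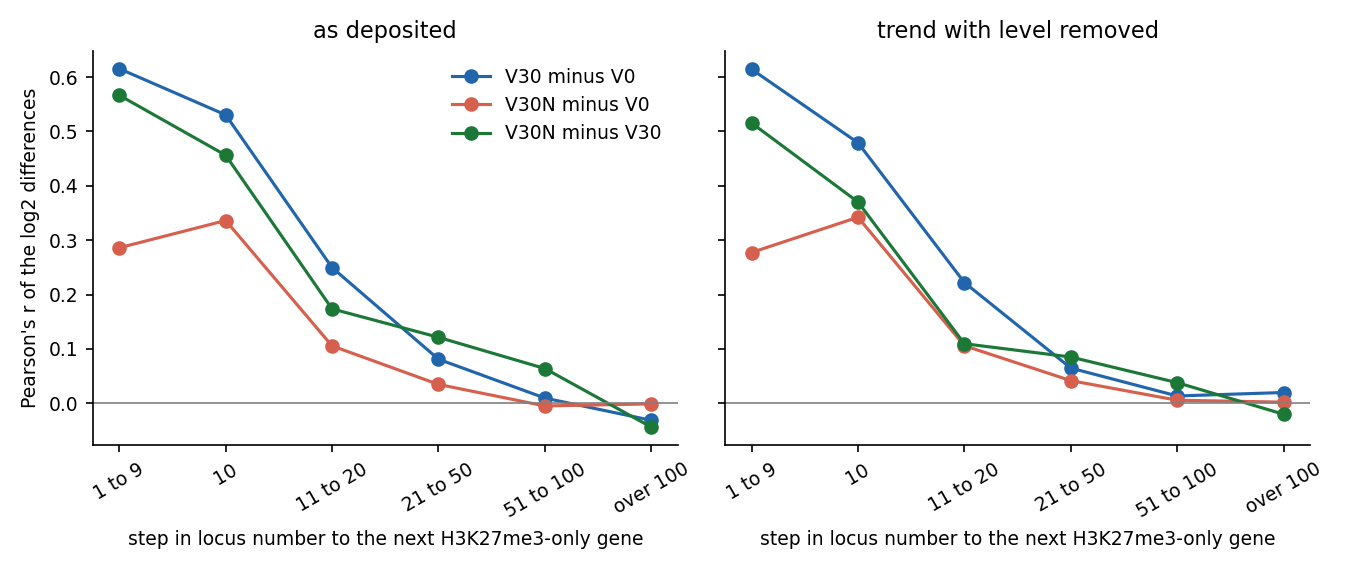
Pearson's r between the log2 differences of successive H3K27me3-only genes, by the step between their locus numbers, for the 3 comparisons. Values as deposited are on the left and values with the trend with level removed on the right. For V30 minus V0, r goes from 0.62 at steps under 10 to 0.01 at 51 to 100.

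The differences in V30 were larger on chromosome 4 than on the other chromosomes. Members there had a median V30 minus V0 difference of 0.17, against 0.03 to 0.07 on the others, and the medians of 58 of its 76 runs were above 0. With the trend with level removed the median of members was 0.07, against -0.03 to 0.02. The direction was not particular to runs: over all H3K27me3 genes the median as deposited was 0.03 on chromosome 4, against -0.02 to -0.002 on the others. For V30N minus V0 the median of members on chromosome 4 was 0.01, and on the others it was 0.01 to 0.02. The dense stretch from Bradi4g09100 to Bradi4g13620 contributed to this: 66 of its 74 members were higher in V30 than in V0, where 61.5% of all members and 48.2% of all H3K27me3 genes were. The median over the members of the stretch was 0.27, or 0.11 with the trend removed. Of its 19 runs, 18 had a median above 0, as did 200 of all 311 runs, and the medians in the stretch ran from -0.08 to 0.60. These counts of members and runs use values as deposited and were not worked out with the trend removed. Members of the stretch have high levels. All H3K27me3 genes in the highest of 4 level classes had a median of 0.15. The other 209 members of chromosome 4 had a median of 0.12, or 0.05 with the trend removed. The 63 H3K27me3-only genes of the stretch that lay outside runs had a median of 0.20, below its members, but 0.14 with the trend removed, above them. Its 27 genes with both marks had -0.003, or 0.02 with the trend removed. In V30N minus V0, members of the stretch had a median of 0.03. Without chromosome 4, 5 members were higher by 1.5-fold in V30 minus V0 in place of 15, and 10 were lower in place of 15. The share of all genes without chromosome 4 was not worked out. The larger share of higher members given above thus rests largely on this chromosome. Without it, the share of variance between runs was 34.2%.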

How the data were processed

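The authors deposited 1 signal value per gene and ChIP-seq library, in a unit their files do not define. Per the submitters' processing notes, the tool used was Bowtie2 2.1.0, a read aligner. The sources used here do not state genome build, annotation, input correction or normalization. Depth is therefore unknown, and values carry no counting interval. From these signals, values were compared as log2(signal + 27.3), the pseudocount being the 1st percentile of H3K27me3 values. No filter on low values was used, so all 1149 members entered every count. With 1 library per condition no test was run. Genes were counted past 1.5-fold and 2-fold, and the share of variance between runs was a one-way intraclass estimate, checked on simulated data. The trend with level was removed by lowess (span 0.3) over all 6554 genes. Members and lists were chosen with earlier results of these data known. Named runs were the 3 longest, the 3 highest and 2 lowest in level, the 2 with the highest and the 2 with the lowest median difference per comparison (excluding runs whose median level was under the first quartile of H3K27me3 genes), the furthest member each way, and any run holding listed flowering, CBF or IRI loci, of which the IRI run was the only one. The stretch on chromosome 4, Bradi4g37850, Bradi4g10630 and Bradi4g39167 were added after their values were seen. Calculations used Python 3.11.15, numpy 2.4.6, pandas 2.3.3 and statsmodels 0.14.6.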

Additional observations from a re-analysis of the deposited data

How the results depend on the processing

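The number of genes in runs depended on the rule: 27 with steps of 5 or less, 2030 (in 506 runs) with steps of up to 20, 2439 with runs of 2, 295 with runs of 5 or more and 1799 if genes with both marks could join. Counts past 1.5-fold were small and moved with most settings. For most settings the share of all genes was not worked out, so these counts describe the members only. For V30 minus V0 (15 higher, 15 lower) they were 29 and 28 without pseudocount, 24 higher with centring, 9 higher with quantile normalization, 8 higher with the trend with level removed, 1 and 4 at 2-fold, 8 and 7 in runs of 5 or more, and 0 and 3 with steps of 5 or less, where the median was -0.045. For V30N minus V0 (2 and 1) they were 7 and 12 without pseudocount, 1 higher with a pseudocount at the 10th percentile, 2 lower with quantile normalization, 0 lower without the lowest of 4 level classes, 0 and 0 at 2-fold, 1 and 0 in runs of 5 or more and 0 and 0 with steps of 5 or less, where 8.52% of variance lay between runs. For V30N minus V30 (7 and 13) they were 29 and 27 without pseudocount, 8 lower with quantile normalization or trend removal, 2 and 1 at 2-fold, 2 and 2 in runs of 5 or more and 0 and 0 with steps of 5 or less. Settings added after seeing the data were leaving out chromosome 4 (5 higher for V30 minus V0, 1 and 0 for V30N minus V0, 4 and 8 for V30N minus V30), leaving out the 2 most different runs (3 higher for V30N minus V30) and ranks. The causes were not tested. Of 147 alternative values, 102 stayed within 1.5 times (counts, shares) or 0.1 (medians). The limit of 0.1 is larger than the members' medians, so it cannot show that they are stable. With the trend with level removed, the median went from 0.08 to 0.02 for V30 minus V0. For V30N minus V30 it went from -0.06 to -0.005. Centring cannot change a share of variance, so those alternatives stayed the same by construction. No median of a named run past 1.5-fold changed sign, but those of Bradi4g05240 to Bradi4g05290 (V30 minus V0) and Bradi4g10380 to Bradi4g10397 (V30 minus V0, V30N minus V30) were under 1.5-fold with quantile normalization or trend removal. For V30N minus V30, Bradi3g60250 to Bradi3g60270 (-0.57) was past 1.5-fold without pseudocount (-0.74), with centring (-0.59), quantile normalization (-0.60) and trend removal (-0.61), and Bradi5g27310 to Bradi5g27350 (0.52) without pseudocount (0.62). Some smaller medians of high-level runs did change sign, such as V30N minus V30 of Bradi1g00280 to Bradi1g00400, from -0.20 to 0.08 with the trend removed. No paired analysis was possible because each condition had 1 library.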
